A study of Mus musculus with 419 samples.

Results

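The Myc genes and their partners were followed in 419 single mouse embryonic stem cells. The 5 genes, Myc, Mycn, Mycl, Max and Mga, were chosen by symbol among 48164 annotated genes of GENCODE vM21, of which 12335 were measured, meaning a pooled value of at least 1000 and a value above 0 in at least 10% of cells. All 5 passed. The cells were in G1 phase and came from F1-21.6, a female hybrid line with 1 chromosome set from strain 129 and the other from CAST, grown on laminin-511 without feeder cells in 15% fetal bovine serum with 1000 U/ml of LIF, the cytokine that keeps such cells undifferentiated. There was no other condition and no untreated control, and the assay was RamDA-seq, which reads total RNA over the full length of transcripts. Because the labels name 1 line and give no replicate cultures, all cells count as 1 sample. No p-value was therefore made from cells, and the spread quoted beside a mean is over 5 sequencing lanes of 80 to 88 cells, which may be technical.

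Myc, Mycn and Mycl encode basic helix-loop-helix leucine zipper proteins that bind DNA only when paired with Max, and the pairs favour the E-box sequence CACGTG. Their targets include genes for ribosome assembly, nucleotide and polyamine synthesis and glycolysis. Max also pairs with the Mxd proteins, Mnt and Mga, which repress. Mga carries a T-box domain beside its helix-loop-helix domain and holds together the Polycomb complex PRC1.6, which silences germline genes in embryonic stem cells.

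The 2 deposited tables give each transcript's value from the 129 and the CAST allele as whole numbers. They were taken as scaled estimates and not as raw counts, so the read depth is unknown. Totals over both alleles ranged from 698363 to 1477656 per cell, with a median of 925852. The 129 table held 0 for X-linked genes such as Rps4x and Pgk1, so allele shares are given for autosomal genes only. All 11 pluripotency markers were present, Pou5f1 in 100% of cells. However, 13 cells had a summed pluripotency marker level under 0.1 of the median cell, at 6.33 to 239 per kb against 254 to 5436 per kb in the other 406 cells. Their fibroblast markers summed to 3.55 to 677 per kb, against 0 to 85.2 per kb in the other cells, and over all cells the 6 markers were above 0 in 2.63% of cells for Col3a1 to 61.6% for Thy1. Mycn was low in these 13 cells, with a median of 2.37 per kb against 38.8 per kb in the rest, and Myc had medians of 8.90 and 19.9 per kb. Mycl had medians of 3.33 and 1.82 per kb. Counts of list genes are therefore given with and without these 13 cells for most lists.

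Mycn was the main Myc family transcript. Levels are given per kilobase, as the sum over a gene's rows of the scaled value divided by the row's length, so that genes can be set side by side. Mycn (chromosome 12, 12936093 to 12941914, minus strand, mm10 as for all positions) ran from 0 to 304 per kb over the cells with a median of 38.2 per kb, and averaged 43.0 ± 4.27 per kb (SD over 5 lanes). Myc (chromosome 15, 61985391 to 61990374, plus strand) ran from 0 to 101 per kb with a median of 19.5 per kb, and averaged 23.2 ± 1.13 per kb. Both genes thus covered wide and overlapping ranges of cells, with Mycn above Myc in every lane. Mycn exceeded Myc in 309 of 419 cells, 73.7% (exact binomial 95% interval 69.3% to 77.9%), and in 70.7% to 76.7% of the cells of a lane. The mean Mycn level was 1.85-fold that of Myc.

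Mycl, the third member, was low. It (chromosome 4, 122995652 to 123002485, plus strand) had a median of 1.86 per kb, a range of 0 to 39.2 per kb and a mean of 2.73 ± 0.352 per kb, above only 17.3% of measured genes. In 85 of 419 cells Mycl had no value at all. Of the summed level of the 3 genes, 62.4% was Mycn, 33.7% Myc and 3.96% Mycl, and these genes were the highest of the 3 in 305, 105 and 9 cells. Bmyc, a gene related to part of Myc, averaged 4.46 per kb, and Mycs, an intronless relative, 0.00595 per kb.

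The shared partner Max (chromosome 12, 76937269 to 76962201, minus strand) was present in all cells. Its level ran from 5.90 to 54.8 per kb with a median of 23.8 per kb, and averaged 24.5 ± 1.34 per kb, which lies within the lane spread of Myc. The summed mean of Myc, Mycn and Mycl was thus above that of Max. Mga (chromosome 2, 119897228 to 119969581, plus strand) ran from 0.641 to 225.1 per kb with a median of 66.5 per kb, and averaged 70.1 ± 2.58 per kb. In order of the mean, Mga stood first, then Mycn, Max, Myc and Mycl, and Max and Myc were the only neighbours that did not differ beyond their spread. The measured genes had a median of 9.95 per kb, and 92.3%, 86.1%, 74.9%, 73.5% and 17.3% of them lay below Mga, Mycn, Max, Myc and Mycl in that order.

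**Figure D1:**
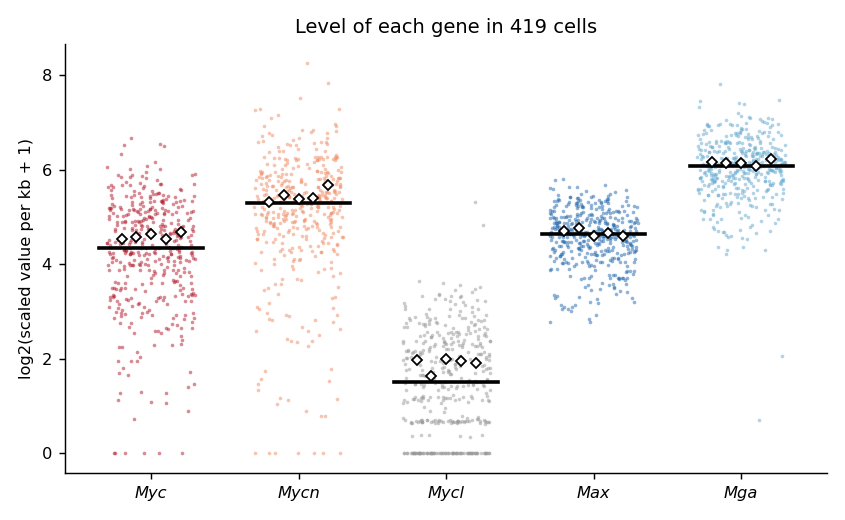
Level of each gene in 419 cells as log2 of the scaled value per kb plus 1; each dot is a cell, the black line the median over cells and each diamond the mean of 1 of 5 lanes. Mycn lies above Myc in all lanes, Mycl is near the floor in many cells, and no cell is at 0 for Max or Mga.

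The order of Mga depends on how its rows are counted. Mga has 15 annotated rows, among them short noncoding ones, and the long coding row Mga-201 held 56.2% of its summed value. That row alone gave 14.3 per kb, below the 32.9 per kb of the leading Mycn row and the 20.1 per kb of the leading Max row. For Myc, whose 8 rows divide its value, the leading row Myc-206 alone gave 7.90 per kb. Rows Myc-201 and Myc-205 have identical sequences and identical values, 12.9% of the Myc sum each.

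For Max, the transcript makeup is simpler, and the tables hold 2 of its 7 annotated rows. Max-201 held 81.9% and Max-202 18.1% of the sum. They differ by a coding exon of 27 nt (chromosome 12, 76961263 to 76961289, minus strand), which adds 9 amino acids next to the DNA-binding region and distinguishes the long from the short Max protein. The rows also differ elsewhere, since their lengths are 1942 and 1926 nt. The junctions are shown because the exon is the coding difference just named; capitals mark the added exon, read on the coding strand from the GENCODE transcripts:
Max-202: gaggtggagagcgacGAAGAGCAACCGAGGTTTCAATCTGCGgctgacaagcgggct
Max-201: gaggtggagagcgacgctgacaagcgggct
The short form was above 0 in 401 cells and the long form in 244 cells, so the row without the exon was the main one. A value split between rows that share most of their sequence is an estimate.

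The alleles of the 5 genes did not contribute alike. The 129 share, the 129 value as a percent of both alleles pooled over cells, was 39.9% ± 3.09 for Myc (SD over 5 lanes, 36.7% to 43.8%) and 43.1% ± 2.53 for Mycn (39.4% to 46.0%). Both were below 50% in all lanes. For Max the share was 31.5% ± 1.73 and for Mga 49.0% ± 1.45, with lane values of 30.0% to 34.0% and 46.8% to 50.7%. Max was thus the most skewed of the 5 and Mga near even. Mycl had 55.6% ± 9.20, and its lane values, 46.7% to 69.7%, lay on both sides of even. Over 11357 autosomal genes the quartiles of the share were 46.0%, 50.1% and 54.1%, and 4.45%, 11.0% and 16.3% of them had a lower share than Max, Myc and Mycn in that order.

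Within single cells Myc was often read from 1 allele. Of 419 cells, 40 held Myc only from 129, 87 only from CAST, 286 from both and 6 from neither. The single-allele cells made up 9.55% (6.91% to 12.8%, exact binomial) and 20.8% (17.0% to 25.0%). By contrast Mycn came from 129 only in 5 cells, from CAST only in 14 and from both in 93.8% of cells. The depth is unknown, so an allele at 0 in a cell may lie under detection. Over cells, the Spearman rho between the 129 and CAST values was -0.05 for Myc and 0.52 for Mycn: cells with much 129 Mycn held much CAST Mycn, while no such relation showed for Myc. In 61 cells Myc was divided exactly evenly, as it was for Mycn in 15 cells and for Max in 64. Exactly even values also fill the rows that hold no strain information, such as Myc-203, and their part in the allele values was not tested.

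**Figure D2:**
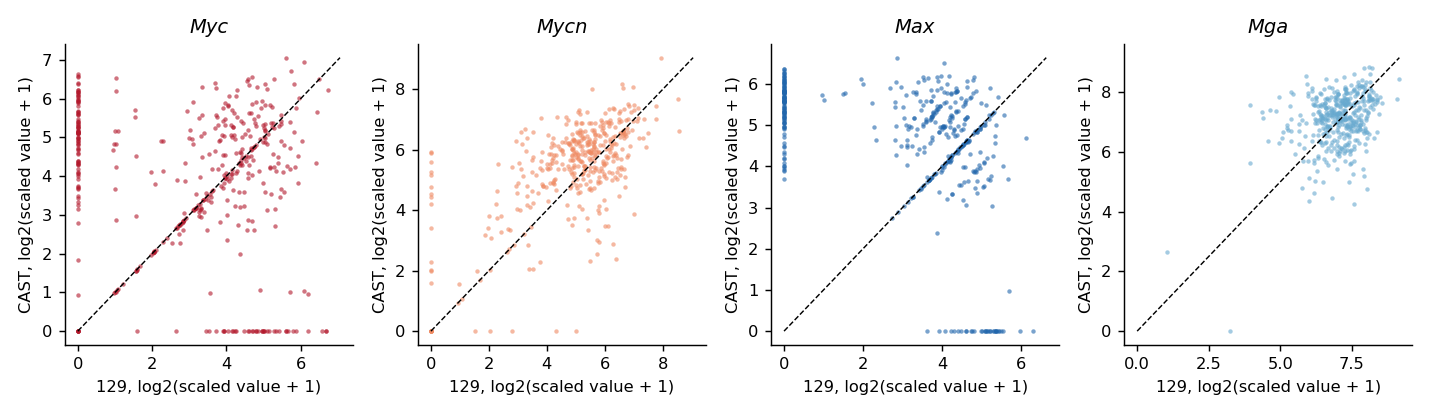
Scaled value of the 129 allele (x) and the CAST allele (y) in each of 419 cells, both as log2 of the value plus 1, for Myc, Mycn, Max and Mga; the dashed line marks equal values. Mycn follows the diagonal, Myc has many cells on either axis and 61 exactly on the diagonal, and Max lies mostly above the diagonal.

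The noise measures separate these patterns. Intrinsic noise is the mean squared difference between the alleles after each is divided by its mean, divided by 2. Shared noise takes the product of the alleles so scaled, averaged over cells, less 1. Mycn had an intrinsic noise of 0.359 and a shared noise of 0.407. Among the genes nearest in mean, the median shared noise was 0.00324 and 96.0% had a lower value than Mycn. Myc was the reverse, with an intrinsic noise of 0.983 and a shared noise of 0.0474; 96.0% of the genes nearest to it in mean had less intrinsic noise, their median being 0.523. By these measures cells differed in Mycn both through the alleles together, at 0.407, and through each allele on its own, at 0.359. In Myc the measured difference was mainly between the alleles. The part of undetected alleles and of exactly even values in the Myc measures was not tested. All these values include the cells low in pluripotency markers.

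For Max the intrinsic noise was 0.829 and the shared noise -0.253, lower than in all but 2.99% of the genes nearest in mean, and the alleles ran against each other with a rho of -0.46. Max was exactly even in 64 cells, only from 129 in 33 and only from CAST in 107. How a value was divided between the alleles is not stated, and its part in these measures was not tested. Mga had an intrinsic noise of 0.180, against a median of 0.115 in the genes nearest in mean, and a shared noise of 0.0750. As log2 distance from the running median of 7408 genes of like mean, intrinsic noise stood at 0.91 for Myc, 0.82 for Max, 0.65 for Mga and 0.48 for Mycn, above 92.4%, 90.5%, 86.0% and 78.9% of genes. For Mycn this distance turned to -0.13 when the leading row alone was used. Mycl was below the mean of 5 per allele needed for a distance, and its intrinsic noise was 3.21.

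Max lies in a part of chromosome 12 whose allele balance differs between cells. From 80 Mb on, leaving Max outside the genes that set the classes, 295 cells had a 129 share under 35% and are called CAST-skewed, 118 had 42% to 58% and are called balanced, and 6 fell in neither class. Max had a 129 share of 26.5% in CAST-skewed cells and 50.4% in balanced cells. Lane values were 24.5% to 30.3% in CAST-skewed cells and 41.5% to 57.04% in balanced cells, so the lane values of the classes did not overlap. The 129 allele averaged 14.3 ± 13.4 in CAST-skewed cells and 15.6 ± 11.2 in balanced cells (SD over cells), whereas the CAST allele averaged 39.7 ± 18.4 and 15.3 ± 11.7 in the same order. The classes thus differed in the CAST value of Max, and by little in its 129 value. Within the classes the rho between the alleles of Max was -0.53 in CAST-skewed and -0.44 in balanced cells.

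Summed over both alleles, Max averaged 54.0 ± 16.0 in CAST-skewed cells and 30.8 ± 12.1 in balanced cells, a ratio of 1.75. The measured genes beyond 80 Mb had a median ratio of 1.88, with 0.999 for 129 and 2.79 for CAST, and Max's ratios of 0.921 and 2.60 lie close to these. Over 7121 genes on other autosomes the median ratio was 0.986 (quartiles 0.894 and 1.07). The balance changes between Hif1a and Ppp2r5e, before Max is reached: Hif1a, which starts at 73901375, had a 129 share of 50.5% in CAST-skewed cells and 49.2% in balanced cells, while Ppp2r5e, which starts at 75450881, had 24.0% and 48.8%.

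Mycn sits on the same chromosome but far from this region, near its other end, where the allele balance was alike in both classes, with a 129 share of 42.8% in CAST-skewed and 43.3% in balanced cells. Its level was nonetheless higher in CAST-skewed cells, 118 ± 84.9 against 88.1 ± 75.0 in balanced cells (sum of rows, SD over cells), and both alleles were higher, by 1.32-fold for 129 and 1.36-fold for CAST. Of the 13 cells low in pluripotency markers, 3 were CAST-skewed and 10 balanced, and without them Mycn averaged 119 ± 84.6 in CAST-skewed and 94.6 ± 74.5 in balanced cells, a ratio of 1.26. With all cells the ratio of 1.34 was above that of 98.6% of genes on other autosomes. Mycl went the other way, with 6.22 ± 6.23 in CAST-skewed and 11.1 ± 14.9 in balanced cells. Its ratio of 0.562 was above that of only 1.63% of these genes. They needed a mean of at least 5 per allele, which Mycl, with 4.22 for 129 and 3.33 for CAST, did not reach. Leaving out the 13 cells, the ratio was 0.618 for Mycl and 1.71 for Max. Myc and Mga had ratios of 0.943 and 0.825, or 0.914 and 0.794 without the 13 cells. The cells of both classes overlap widely for each of these 4 genes.

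**Figure D3:**
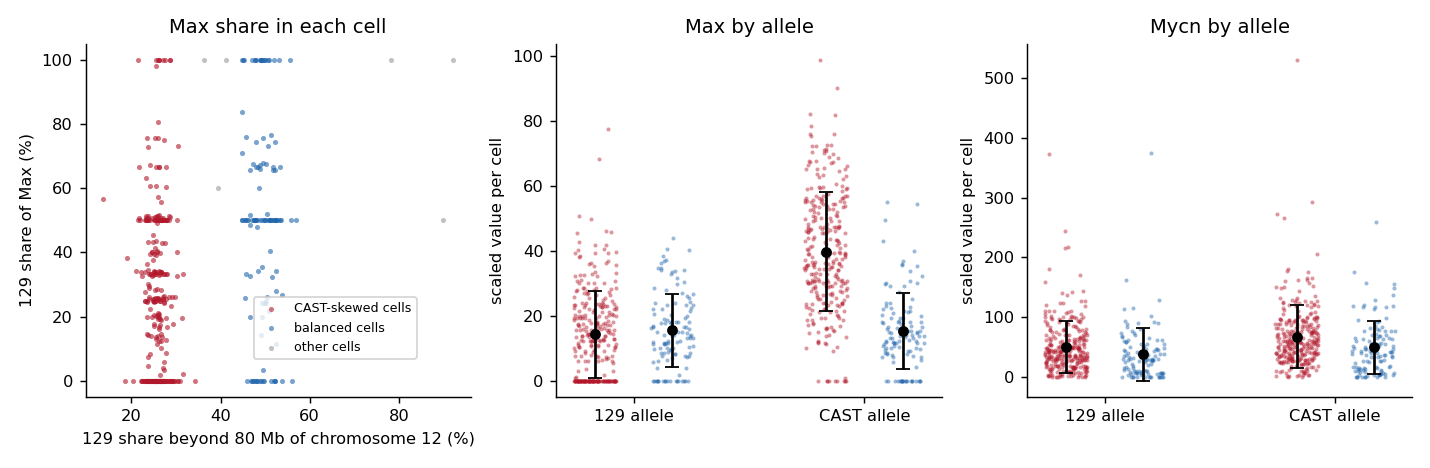
Left, 129 share of Max against the 129 share of chromosome 12 genes beyond 80 Mb in each cell, in percent; middle and right, scaled value of each allele of Max and Mycn in 295 CAST-skewed cells (red) and 118 balanced cells (blue), with mean and SD over cells in black. For Max the CAST allele alone is higher in CAST-skewed cells, at 39.7 against 15.3 in balanced cells, while for Mycn both alleles are.

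Across cells, genes for ribosome assembly followed Mycn and Myc. Relations are Spearman rho over 419 cells; values of at least 0.2 or at most -0.2 were counted, which is a description of size and no test. All values share their cells, libraries and scaling. Of the 35 ribosome biogenesis genes, 22 reached 0.2 with Mycn, against 8.12% of all 12334 measured genes and 13% of the 6310 whose mean was 20 or more. With Myc 14 of the 35 did, against 2.75% of all genes and 4.71% of those whose mean was 20 or more. None of the 35 was at or below -0.2 with Mycn, against 10.8% of all genes, or with Myc, against 1.7%. The median rho of the list was 0.238 with Mycn and 0.183 with Myc, against -0.01 over all measured genes for both.

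Rrp1b, an rRNA processing factor, had a rho of 0.44 with Mycn and 0.27 with Myc. Nolc1, a nucleolar phosphoprotein, had 0.38 and 0.31, and Bop1, a factor of 60S subunit maturation, 0.38 and 0.22. At the low end stood Pno1, a 40S assembly factor, with 0.08 and 0.16, and Utp20, part of the small subunit processome, with 0.09 and -0.02. The level of the list summed had a rho of 0.40 with Mycn, 0.16 to 0.46 in single lanes, and 0.28 with Myc, 0.09 to 0.51 in single lanes. Without the 13 cells low in pluripotency markers the rho of the summed level was 0.35 with Mycn and 0.25 with Myc, and 17 and 8 of the 35 genes reached 0.2, against 4.77% and 1.66% of all genes. With the rank of the number of rows above 0 removed from both sides, as a measure of how much was detected in a cell, the values were 0.38 and 0.26.

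Mycl showed the opposite sign. None of the 35 ribosome biogenesis genes reached 0.2 with Mycl, against 1.82% of all genes, and 6 were at or below -0.2, against 1.14% of all genes. They were Wdr43, Heatr1, Fbl, Ddx21, Ncl and Gnl3. With the 13 cells left out, 2 of the 35 were at or below -0.2, against 0.738% of all genes. The summed level of the list had a rho of -0.25 with Mycl, -0.35 to -0.18 in single lanes, and -0.23 without the 13 cells. Mycl also had a rho of -0.19 with Mycn and -0.17 with Myc, whereas Myc and Mycn had 0.18. Low values limit the precision of Mycl.

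**Figure D4:**
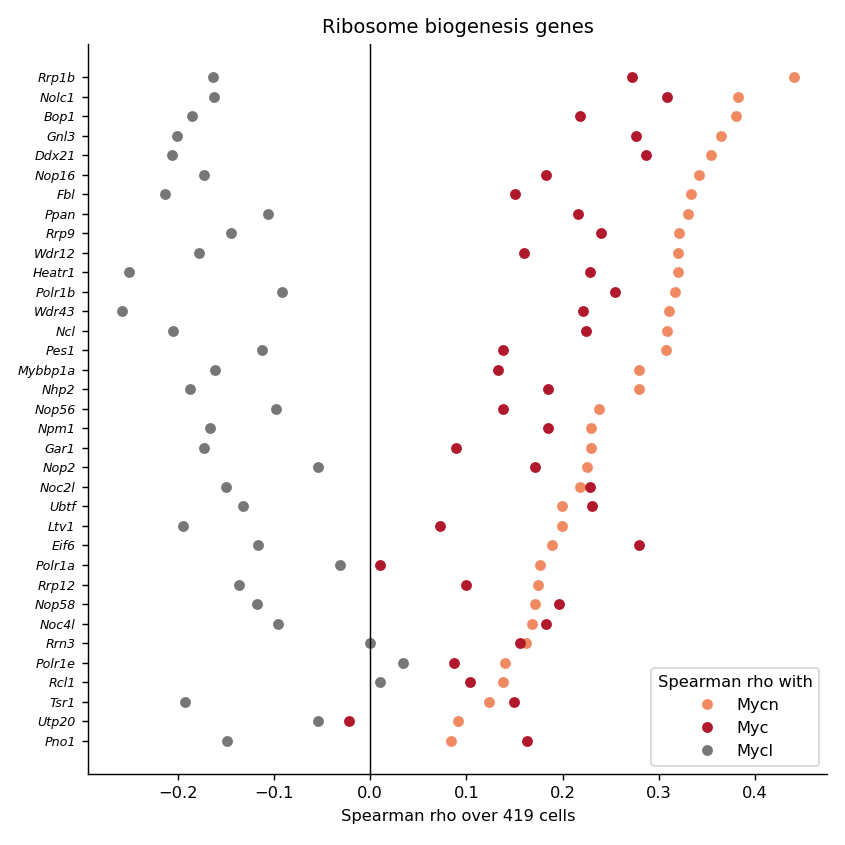
Spearman rho over 419 cells of each of 35 ribosome biogenesis genes (rows) with Mycn (orange), Myc (red) and Mycl (grey), sorted by the value for Mycn. All 35 genes are above 0 with Mycn, 34 are with Myc and 3 are with Mycl.

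Structural ribosomal protein genes had lower values. Of 85 measured genes of 86, 16 reached 0.2 with Mycn and 3 with Myc, to be read against 13% and 4.71% of the genes whose mean was 20 or more. The median rho was 0.130 with Mycn and 0.0670 with Myc. Rpl7a had the highest value with Mycn, 0.36, and Rps27l, an S27-like gene that p53 induces, the lowest, -0.14. Without the 13 cells, 4 and 0 of the 85 genes reached 0.2, with medians of 0.0742 and 0.0360, against 4.77% and 1.66% of all genes. The count for Mycn is then near the share of all genes. The share among genes whose mean was 20 or more was not computed without the 13 cells. The difference between the lists was not tested.

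Among biosynthetic genes, the counts are again to be read against 8.12% of all genes at or above 0.2 with Mycn and 2.75% with Myc, or 4.77% and 1.66% without the 13 cells. With all cells, the shares were higher among genes whose mean was 20 or more, at 13% with Mycn and 4.71% with Myc. In polyamine synthesis, 3 of 7 genes reached 0.2 with Mycn and 2 with Myc, or 3 and 1 without the 13 cells. Srm, the spermidine synthase, had 0.39 and 0.22, Sms, the spermine synthase, 0.35 and 0.24, and Odc1, ornithine decarboxylase, 0.21 and 0.15. In nucleotide synthesis 9 of 21 did with Mycn and 2 with Myc: the purine enzyme Gart had 0.37 and 0.24, and Ppat, which opens the purine pathway, 0.21 and 0.22, while the pyrimidine enzyme Cad had -0.05 and -0.19. Without the 13 cells, 4 and 1 of the 21 reached 0.2.

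In glycolysis 6 of 15 genes reached 0.2 with Mycn and 1 was at or below -0.2. These are to be read against 8.12% and 10.8% of all genes, and 13% and 11% of those whose mean was 20 or more. Without the 13 cells there were 5 and 1. With Myc 3 of the 15 reached 0.2, against 2.75% of all genes, and 3 did without the 13 cells. Eno1, enolase, had a rho of 0.45 with Mycn and 0.11 with Myc, Pgam1 0.41 and 0.23, and Hk1, a hexokinase, -0.36 and -0.12. Among the 15 genes of serine, one-carbon and glutamine metabolism, 6 reached 0.2 with Mycn and 4 with Myc, or 5 and 2 without the 13 cells. The glutamine carrier Slc1a5 had 0.32 and 0.29, and Slc3a2, a subunit of amino acid exchangers, 0.36 and 0.21. Of 17 translation factors 8 reached 0.2 with Mycn and 2 with Myc, among them Eif5a, with 0.30 and 0.20. Their summed level had a rho of only 0.07 with Mycn and -0.02 with Myc, and without the 13 cells 2 and 0 of the 17 reached 0.2. In the cell cycle list Ccnd1 and Ccne1, cyclins of G1, had 0.25 and 0.28 with Mycn and 0.26 and 0.26 with Myc, whereas Cdkn1a, a CDK inhibitor that Myc represses in other cells, had -0.14 and -0.27. That was the only gene of the 12 at or below -0.2 with Myc, against 1.7% of all genes. With Mycn the only such gene was Cdkn2b, at -0.22, against 10.8% of all genes. At or above 0.2 were 3 of the 12 with Myc and 5 with Mycn. Without the 13 cells 11 genes were measured, 2 of them at or above 0.2 with Myc and 4 with Mycn. At or below -0.2 there were then 1 and 0.

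**Figure D5:**
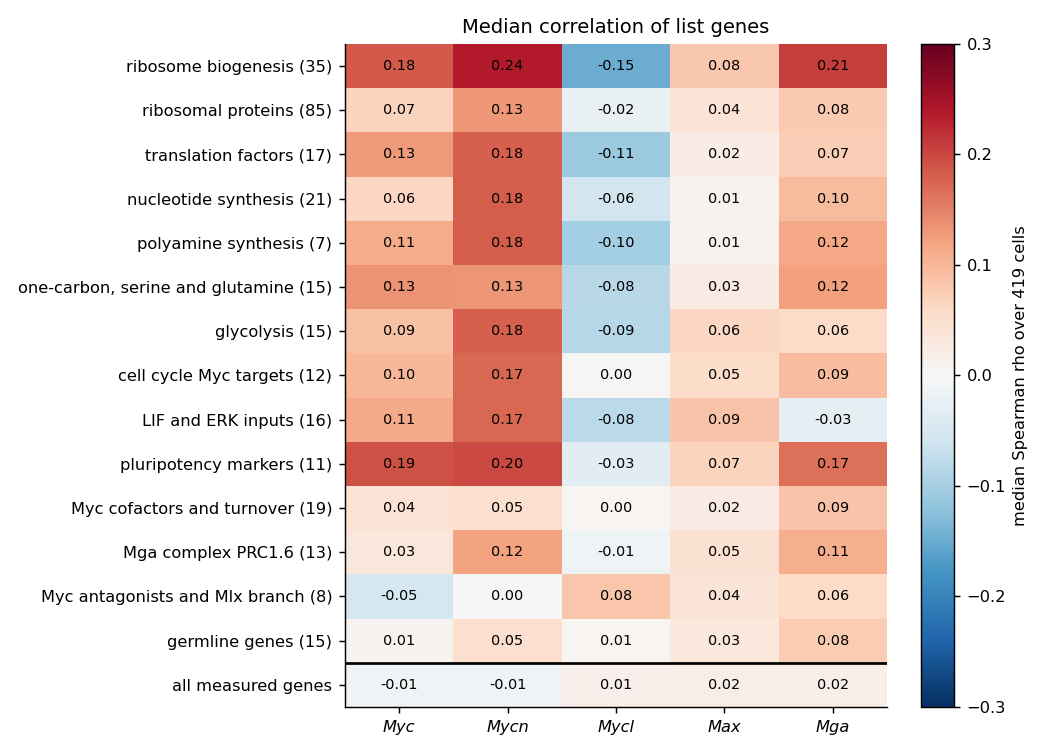
Median Spearman rho over 419 cells of the genes of each list (rows, number measured in parentheses) with each of the 5 genes (columns), and of all measured genes in the last row. Of the lists drawn, ribosome biogenesis has the highest median with Mycn, 0.24, and the lowest with Mycl, -0.15. With Myc the pluripotency markers have the highest, 0.19, and ribosome biogenesis has 0.18. The pluripotency markers have 0.20 with Mycn. The formative markers, not drawn, have 0.27 with Mycn over 5 genes.

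In the LIF and ERK list, which also holds Ctnnb1, Axin2, Lef1 and Tcf7, 12 of 16 genes were above 0 with Myc and 12 of 16 with Mycn. The median rho over all measured genes was -0.01 for both. With Max 12 of 16 were also above 0, so this count was not particular to Myc and Mycn. Of the 16 measured, 6 reached 0.2 with Myc, against 2.75% of all genes, and 7 with Mycn, against 8.12%. Leaving out the 13 cells gave 6 and 5. At or below -0.2 were 0 genes with Myc and 1 with Mycn, against 1.7% and 10.8% of all genes. That gene was Jun, at -0.29. With Mycn the rho of the summed level was 0.35, and Spry4 had 0.41, Etv5 0.41 and Gbx2 0.37. The summed level of the list had a rho of 0.40 with Myc, 0.24 to 0.52 in single lanes and 0.38 without the 13 cells. Spry4, a feedback inhibitor of ERK signalling, was the gene most like Myc among 5796 candidates, with a rho of 0.42 and 0.36 to 0.53 in single lanes. Spry2, another Sprouty inhibitor, had 0.35 and the ETS factor Etv5, an ERK target, 0.34. The other genes most like Myc were Bmp4, a BMP ligand, with 0.37, and Epop, a Polycomb and Elongin partner, with 0.36. Gbx2, a LIF and STAT3 target, had 0.38 with Myc but its mean was under the 20 needed for that ranking. At the other end were the receptor Notch3 at -0.34, the kinase Cdc42bpg at -0.33 and the scaffold Ahnak2 at -0.30.

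The genes most like Mycn were L1td1, an RNA-binding protein of embryonic stem cells, with 0.46, the transcription factor Myrf with 0.45, Eno1 with 0.45, Rrp1b with 0.44 and Stmn1, a microtubule regulator, with 0.43. The lowest were actin and membrane genes, Myo1e, a myosin, at -0.48, Iqsec1, an Arf exchange factor, at -0.47 and the scaffold Iqgap1 at -0.46. Myo1e was among the highest with Mycl, at 0.34, next to Cmtm6, a stabilizer of surface proteins, at 0.36. Without the 13 cells Myo1e had -0.44 with Mycn and 0.33 with Mycl. Hdac5 at 0.30, Calu and Abl1 at 0.29 followed for Mycl, and Nol8, Nup37 and Slc7a7 were lowest at -0.30.

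The genes most like Max lie in the same distal region. Yy1, Psmc1, Eif5, Eif2b2 and Ppp4r3a had a rho of 0.53 to 0.55 with Max, and all lie on chromosome 12 beyond 80 Mb. Within the CAST-skewed cells their values were 0.10 to 0.17 and within the balanced cells 0.03 to 0.29, so most of the relation was between the classes. The lowest were Abcc1 at -0.34, Nisch at -0.31 and Clstn1 at -0.28. Of the ribosome biogenesis genes 4 of 35 reached 0.2 with Max, against 3.08% of all genes, and none was at or below -0.2, against 0.608% of all genes. In the other 406 cells 2 of 35 reached 0.2, against 2.56%. Max had a rho of 0.23 with Mycn, which was 0.09 within CAST-skewed and 0.27 within balanced cells.

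Mga was set beside the other members of its complex. Of 13 genes of PRC1.6, 5 reached 0.2 with Mga, against 9.24% of all genes and 13% of those whose mean was 20 or more, and 2 were at or below -0.2, against 6.71% of all genes. Cbx1, a heterochromatin protein, had 0.45, Wdr5 0.38, L3mbtl2, which is specific to the complex, 0.33, Pcgf6, its Polycomb RING subunit, 0.32 and Hdac1 0.25. E2f6, the E2F that targets the complex, had -0.26 and Yaf2 -0.26. With Mycn, L3mbtl2 had 0.36, Pcgf6 0.34 and Cbx1 0.42, so these values were not particular to Mga. Without the 13 cells the counts with Mga were again 5 and 2.

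By level, the complex was led by Hdac1 at 157 per kb, Cbx3 at 144, Wdr5 at 95.8, the E2F partner Tfdp1 at 89.04, L3mbtl2 at 68.4 and the ubiquitin-binding Rybp at 64.1. Cbx1 followed at 47.5 per kb, the ubiquitin ligase Rnf2 at 34.0, Hdac2 at 30.9, Pcgf6 at 17.6, E2f6 at 12.3, Yaf2 at 4.97 and Ring1, the paralogue of Rnf2, at 2.10. E2f6 had a 129 share of 70.4%, Rnf2 59.8%, and L3mbtl2 48.8%.

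Germline genes, the known targets of the complex, were mostly present at low levels. Of 15 measured genes of 17, 5 reached 0.2 with Mga, against 9.24% of all genes, and 0 were at or below -0.2, against 6.71%. In the other 406 cells 2 reached 0.2 and 1 was at or below -0.2, against 6.94% and 5.38% of all genes. Hormad1, a meiotic chromosome protein, averaged 15.9 per kb with a rho of 0.29, Smc1b, a meiotic cohesin, 2.07 per kb with 0.26, and Tex11 2.98 per kb with 0.21. Ddx4, a germ cell helicase, averaged 3.51 per kb and had the lowest rho, -0.20. The genes most like Mga were Kdm5b, a histone demethylase, with 0.48, the SUMO protease Senp3 with 0.47, Gsta4 and Fkbp5 with 0.46, and Morc1, a germline silencing factor, with 0.46. Among the lowest were Akt1 at -0.46 and the focal adhesion gene Parva at -0.45. With ribosome biogenesis genes, Mga had 19 of 35 at or above 0.2, against 9.24% of all genes and 13% of those whose mean was 20 or more. The rho with their summed level was 0.36, and 0.30 to 0.41 in single lanes. In the other 406 cells 15 of 35 reached 0.2, against 6.94% of all genes, and the rho was 0.32.

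Repressors and cofactors of the family ranged widely in level. Mlx, which pairs with a parallel set of partners, averaged 22.1 per kb, close to Max, and Mnt, the main repressive partner of Max in many cells, 9.93 per kb. Mlxip averaged 8.02 per kb, Mxd3 7.72, Mxi1 5.68, Mxd1 2.40, Mxd4 2.11 and Mlxipl 1.54. These 8 genes were below Max in mean level. Of the 8, none reached 0.2 with Myc, against 2.75% of all genes. Mxd4 alone was below -0.2, at -0.21, against 1.7% of all genes. None passed either limit with Mycn, against 8.12% of all genes at or above 0.2 and 10.8% at or below -0.2. With so few genes, these counts do not set the list apart from all genes.

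Among 19 cofactors and turnover genes, the highest level was that of the chromatin remodelling subunit Actl6a, 131 per kb, followed by Ruvbl2, a helicase, at 96.5, Wdr5 at 95.8, the acetyltransferase scaffold Trrap at 51.4 and the chromatin ATPase Ep400 at 42.7. Kat2a, an acetyltransferase, averaged 39.6 per kb, the kinase Pim1 39.2, the kinase Aurka 35.8, Ruvbl1 33.0, the deubiquitinase Usp28 31.9 and the ubiquitin ligase subunit Skp2 29.2. Mycbp averaged 18.2 per kb, Zbtb17, the repressive partner Miz-1, 11.8, Mycbp2 11.0, Fbxw7, which marks Myc for degradation, 10.5, Kat5 8.46 and Bin1 3.18. With Mycn, 5 of the 19 reached 0.2 and 3 were at or below -0.2, against 8.12% and 10.8% of all genes, and without the 13 cells there were 3 of each, against 4.77% and 6.65%. Usp28 had 0.29, Actl6a 0.28, Trrap -0.32, Bin1 -0.30 and Fbxw7 -0.20. With Myc 4 of the 19 reached 0.2, against 2.75% of all genes, and 1 did without the 13 cells, against 1.66%.

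The E-box was looked up in promoter windows of RefSeq on GRCm38.p6, which run from 250 bases before to 50 after a gene's start. CACGTG, which reads alike on both strands, was in 8.09% of 27025 windows, and in 12.4% of the 9086 measured genes with one. Max itself held it 3 bases before the annotated start; Mycn, Mycl and Mga did not. The window of Max is shown because it is the only one among the matched members with the motif, in capitals (chr12:76962199-76962498, minus strand):
Max: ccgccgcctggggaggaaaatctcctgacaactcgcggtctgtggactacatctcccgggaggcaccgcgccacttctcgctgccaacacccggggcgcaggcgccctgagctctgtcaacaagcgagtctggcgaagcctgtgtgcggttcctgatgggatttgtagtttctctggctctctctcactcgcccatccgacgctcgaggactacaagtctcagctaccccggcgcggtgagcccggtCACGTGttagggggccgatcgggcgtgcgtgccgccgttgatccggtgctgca

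Of 30 ribosome biogenesis genes with a window, 9 held the motif, as did 5 of 18 nucleotide synthesis genes and 7 of 12 translation factors. It was in 6 of 65 ribosomal protein genes, 1 of 14 glycolysis genes, 1 of 10 cell cycle genes and 0 of 12 one-carbon genes, and in 7 of 14 germline genes. Shown with 12 bases on either side are Wdr43 and Pes1, which had a rho of 0.31 each with Mycn, Nop2 with 0.23, and the nucleotide enzymes Atic with 0.25 and Nme1 with 0.24:
Wdr43 (chr17:71616220-71616249, plus strand): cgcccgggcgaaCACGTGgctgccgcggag
Pes1 (chr11:3963965-3963994, plus strand): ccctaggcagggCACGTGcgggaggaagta
Nop2 (chr6:125131811-125131840, plus strand): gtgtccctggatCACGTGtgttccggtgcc
Atic (chr1:71557137-71557166, plus strand): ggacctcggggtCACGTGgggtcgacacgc
Nme1 (chr11:93968273-93968302, minus strand): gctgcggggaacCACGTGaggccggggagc
The 9 ribosome biogenesis genes with the motif had a median rho of 0.199 with Mycn, and the 21 without it 0.308, so in this list the genes with the motif did not have the higher values. In nucleotide synthesis the order was reversed, at 0.192 for the 5 genes with the motif and 0.0937 without it. Translation factors had 0.177 both with and without it, and ribosomal protein genes 0.107 with and 0.128 without. These differences were not tested. Over measured genes the medians were 0.00177 with and -0.0201 without the motif. A match of letters is a description and not a binding site.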

How the data were processed

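Single cells were read by RamDA-seq, per the labels. The authors deposited 1 table per allele with 117762 transcript rows and 419 cells as whole numbers. These deposited values were taken as a score: they look like estimates per allele, scaled and rounded by the authors, but no source used here states it. Count tests, first planned, were not used. Per the submitters' processing notes Bowtie 1.1.2 and mm10 were used in a role not stated; how alleles were assigned is not stated there. Rows were joined to GENCODE vM21 (116919 matched, 99.6% of values), and a gene is the sum of its rows. Each cell was scaled to the mean total of both alleles. Genes entered with a pooled value of at least 1000 and values in at least 10% of cells; noise distances needed a mean of 5 per allele and a 129 share of 10% to 90%, and used a running median of 201 genes.

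For each member the 5 highest and 3 lowest genes by rho were named, among genes whose mean was 20 or more and above 0 in at least 50% of cells, without predicted symbols, ribosomal RNA or chromosomes X, Y and M, plus up to 4 members of each list, and all partners by level; other examples, such as Gbx2 and the genes shown with an E-box, were picked after their values were seen. A few genes named by the rule are not reported here. The members, lists and chromosome 12 limits were chosen with earlier results of these data known. Exact binomial intervals cover counting error over cells only. Doublets were not searched for, and all cells were kept except where stated. Alternatives were single rows, other scalings, Pearson correlation, z-scored lists and each lane left out. The noise and correlation code was tested on simulated data. Python 3.11.15, numpy 2.4.6, pandas 2.3.3, scipy 1.17.1 and matplotlib 3.10.9 were used.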

Additional observations from a re-analysis of the deposited data

How the results depend on the processing

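With a gene's leading row alone, the mean level was 7.90 per kb for Myc, 32.9 for Mycn, 1.94 for Mycl, 20.1 for Max and 14.3 for Mga, lower by construction since other rows are dropped; Mga then fell below Mycn and Max, and its 129 share was 43.6%. The noise distance of Mycn turned to -0.13 there; the cause was not tested. The median over cells of the 129 share was 48.5% for Myc and 39.4% for Mycn, against pooled shares of 39.9% and 43.1%. As Pearson correlation of log2 values, Mycn had 0.64 with ribosome biogenesis and 0.46 with ribosomal proteins, against rho of 0.40 and 0.20; the cause was not tested. With each lane left out in turn, and without the 13 cells, all 49 values compared moved by less than 1 SD over lanes. Both settings keep most cells, so small moves were likely beforehand and say little about robustness. Counts of list genes were not among the 49. Without the 13 cells, ribosomal protein genes at or above 0.2 with Mycn fell from 16 to 4, and translation factors from 8 to 2. No paired analysis was possible because the series holds 1 group. Read depth is unknown, which limits Mycl and single-allele cells most.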
